A study of Mus musculus with 6 samples.

Results

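The epidermal growth factor (EGF) family was followed here through 10 genes in mouse uteri: the ligand genes Egf, Ereg, Btc, Hbegf and Tgfa, the receptor genes Egfr, Erbb2, Erbb3 and Erbb4, and Errfi1, which encodes an inhibitor of the receptors. Every probe set that the array annotation assigns to 1 of these genes alone was taken, which gave 22 of 45037 probe sets and 10 of 18193 genes. Arid1a d/d uteri carried Pgr cre/+ and 2 floxed Arid1a alleles, so that Cre made from the Pgr locus removed the floxed part of Arid1a, a gene of the SWI/SNF chromatin remodeling complex, in PGR-expressing cells alone. Arid1a f/f uteri carried the same 2 floxed alleles and no Cre. The Arid1a d/d mice thus also had 1 altered Pgr allele, and with no arrays of mice with Cre alone, its effect and that of Arid1a loss cannot be told apart. Females of both genotypes were mated with C57BL/6 males, and intact uteri were taken at 3.5 days post coitum (dpc), with 3 arrays per genotype. The ages of these females are not given in the sources used here, and nothing in the labels ties each sample to its own mouse. The p-values therefore describe the spread among these 6 samples, which may be technical.

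EGF family ligands are made as membrane-bound precursors that metalloproteases of the ADAM family cut loose. The free ligands bind receptor tyrosine kinases of the ErbB family, which pair with each other and pass the signal through adaptor proteins to the RAS-ERK and PI3K-AKT cascades. ERBB2 has no known ligand of its own, and ERBB3, which has little kinase activity, depends on its partners. In the mouse uterus, HB-EGF is known for its expression in the luminal epithelium around the attaching blastocyst, amphiregulin for its induction by progesterone, and EGFR for its expression in the stroma. The amphiregulin gene was not analysed here, since the annotation used assigns no probe set to it.

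Intensities were linear and spanned 1.29 to 4479, with a median of 3.12 over all arrays. The array medians were 3.05 to 3.17 in Arid1a d/d uteri and 3.10 to 3.15 in Arid1a f/f uteri. The table used here has no column of detection calls. A probe set whose mean lay below 3.12 in both genotypes is called dim here, and its level cannot be told from background. Intensities are compared between arrays for 1 probe set, not between probe sets, except for cell type markers. Their probe sets are summed or averaged on each array before arrays are compared, and Erbb3 is set against such a mean. In a sum, bright probe sets weigh most. The genotypes were compared with limma on log2 intensities, and p-values were adjusted by Benjamini-Hochberg across the 45037 probe sets. A log2 fold change above 0 means a higher intensity in Arid1a d/d uteri, and a change was called at an adjusted p under 0.05. A gene stands for its probe set with the highest mean intensity. Arid1a itself had intensities of 51.9, 51.9 and 58.2 in Arid1a d/d uteri, against 83.6, 86.9 and 103.9 in Arid1a f/f uteri (log2 fold change -0.76, standard error 0.12, adjusted p = 0.0120, limma). Whether its probe sets lie inside the deleted part was not analysed here.

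Of the 10 genes, Erbb3 was higher in Arid1a d/d uteri and none was lower by limma. Over all genes, 3.37% were called higher and 4.06% lower, and nothing is read from a count of 1. At an unadjusted p under 0.05, 3 of the 10 genes passed, Erbb3, Ereg and Errfi1, where 24.9% of all genes did. The median log2 fold change of the 10 genes was -0.03, against -0.02 over all genes. Of the 22 probe sets, 1 was called higher and 0 lower, against 2.42% and 2.35% of all probe sets. At an unadjusted p under 0.05, 4 of the 22 passed, where 18.5% of all probe sets did. Neither count is read as a result about these genes. Every Arid1a d/d array lay above every Arid1a f/f array for 1 of the 10 genes, Erbb3, and below for 1, Ereg, where 13.4% and 16.0% of all genes did so. On their brightest probe sets, 4 of the 10 genes were dim: Egf, Ereg, Btc and Erbb4.

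**Figure D1:**
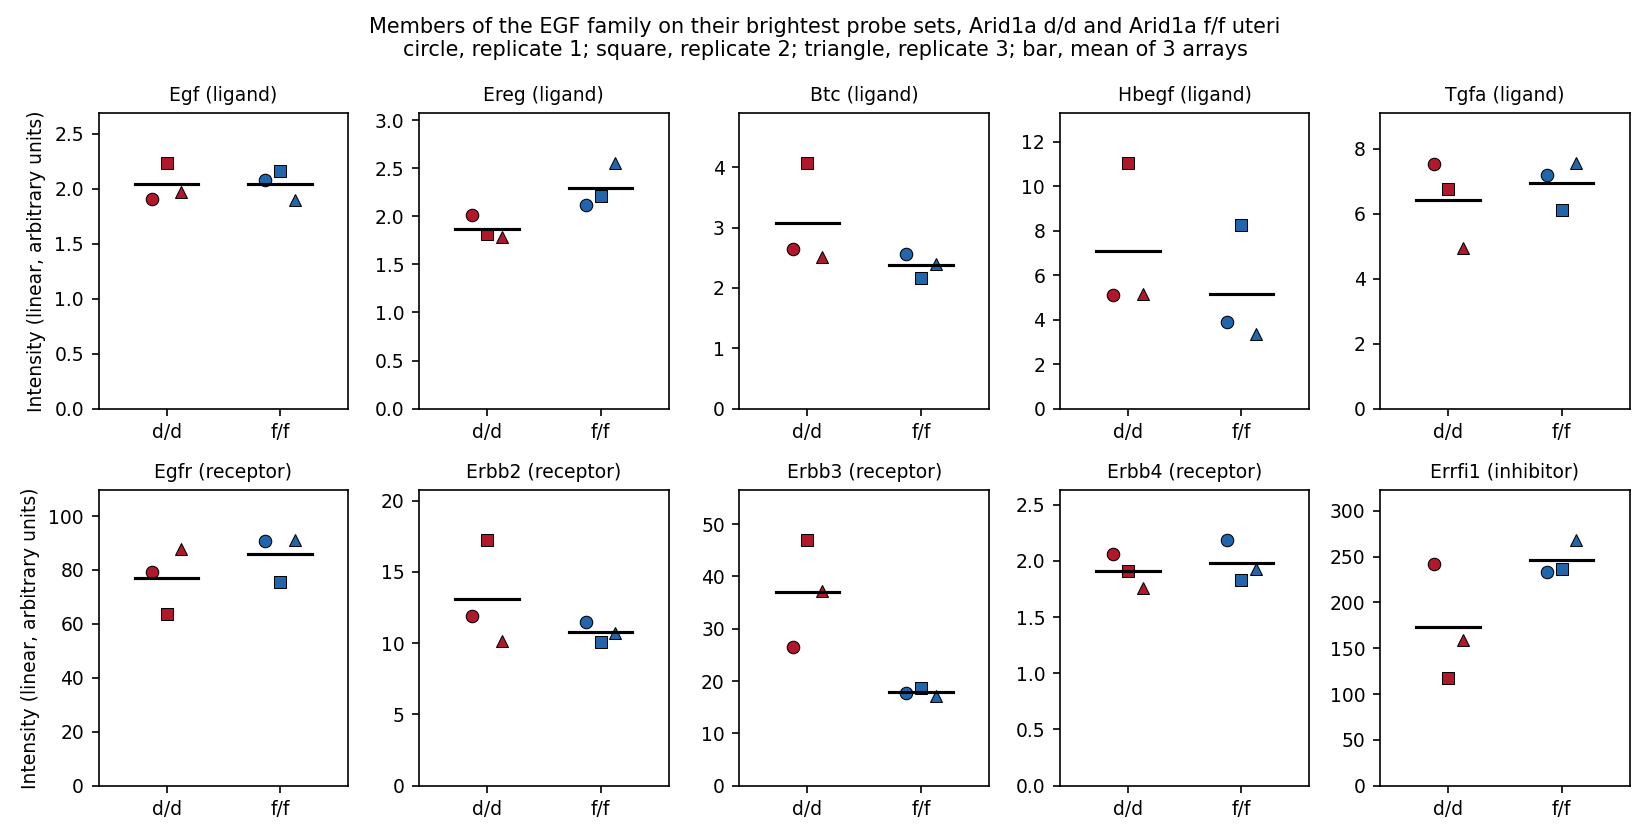
Intensity (linear, arbitrary units) of the 10 genes on the brightest probe set of each, with 1 point per array, Arid1a d/d in red at the left and Arid1a f/f in blue at the right of each panel. Bars are means of 3 arrays, and each panel has its own axis from 0. The 3 Arid1a d/d points of Erbb3 (26.6 to 47.0) sit above the 3 Arid1a f/f points (17.2 to 18.6), and the Errfi1 point of Arid1a d/d replicate 1 (242.5) sits among the Arid1a f/f points.

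Among the receptors, Erbb3 was about 2-fold higher in Arid1a d/d uteri. ERBB3 binds neuregulins and carries many docking sites for PI3K once a partner has phosphorylated it. On its brightest probe set, 1434606_at, Erbb3 had intensities of 26.6, 47.0 and 37.2 in Arid1a d/d uteri, against 17.7, 18.6 and 17.2 in Arid1a f/f uteri. The lowest Arid1a d/d array lay above the highest Arid1a f/f array, and the Arid1a d/d arrays were spread more widely (36.9 ± 10.2, SD, n = 3) than the Arid1a f/f arrays (17.8 ± 0.73, SD, n = 3). The log2 fold change was 1.01 (standard error 0.19, 95% interval 0.59 to 1.43, adjusted p = 0.0211, limma), a fold of 2.02 with an interval from 1.51 to 2.70. The second Erbb3 probe set, 1452482_at, was dim, with 2.45, 2.25 and 2.17 in Arid1a d/d uteri and 2.78, 2.38 and 2.42 in Arid1a f/f uteri, and so the rise rests on 1 probe set. The call was kept without Arid1a d/d replicate 1 (log2 fold change 1.23, adjusted p = 0.00892) or replicate 2 (0.82, adjusted p = 0.0414) and lost without any of the other 4 arrays (0.98 to 1.04, adjusted p from 0.0649 to 0.0822, limma). With 4 added to each intensity before the log, the value was 0.88 and the adjusted p 0.0536.

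Some markers of epithelium were also higher in Arid1a d/d uteri. Of 12 measured epithelial markers, 2 were called higher, 0 were called lower and none was dim. Calls were made for 3.37% (higher) and 4.06% (lower) of all genes. The median log2 fold change of the 12 markers was 0.81. E-cadherin, encoded by Cdh1, had 171, 240 and 225 in Arid1a d/d uteri, against 110, 103 and 120 in Arid1a f/f uteri (log2 fold change 0.92, adjusted p = 0.0119, limma). The epithelial ligand gene Wnt7a differed by 1.07 on the log2 scale (adjusted p = 0.0339, limma), which was 0.27 and not called as the mean of its probe sets. With each array left out in turn, Cdh1 kept its call 5 times of 6 and Wnt7a 2 times of 6. Among the 10 with no call, Elf3, Krt7, Krt19, Cldn7 and Krt8 had log2 fold changes of 1.73, 1.28, 0.89, 0.86 and 0.77. Esrp1, Epcam and Krt18 had 0.58, 0.40 and 0.14, and the claudin genes Cldn3 and Cldn4 had -0.39 and -0.16. For 6 of the 12 markers every Arid1a d/d array lay above every Arid1a f/f array, where 13.4% of all genes did so. The summed intensity of the 12 markers was 1245, 2498 and 1680 in Arid1a d/d replicates 1, 2 and 3, and 1175 to 1259 in Arid1a f/f uteri. The mean log2 intensity of the same markers, which gives each of them equal weight, was 6.07, 7.15 and 6.40 in Arid1a d/d replicates 1, 2 and 3, and 5.79 to 5.94 in Arid1a f/f uteri. On replicate 1 the sum thus lay within the range of the Arid1a f/f arrays and the mean log2 above it. Replicate 2 had the highest sum, the highest mean and the highest Erbb3.

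Erbb3 was then set against the mean log2 intensity of the 12 markers on the same array. The difference was -1.34, -1.59 and -1.18 in Arid1a d/d uteri, against -1.71, -1.72 and -1.69 in Arid1a f/f uteri, with no overlap. Relative to this mean, Erbb3 was 0.34 higher on the log2 scale in Arid1a d/d uteri. Of the markers themselves, Elf3, Krt7 and Wnt7a had larger log2 fold changes than Erbb3, and the others smaller ones. An exact two-sided permutation test gave p = 0.1, which is the smallest p that 3 arrays against 3 allow. Groups without overlap always give this value, so the test adds nothing to the lack of overlap. The part of the epithelial markers in the Erbb3 result was not tested further. In whole uteri, fewer cells of a type and less RNA per cell cannot be told apart.

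The other 3 receptor genes had no called change. Egfr, which encodes the receptor of most of the ligands measured here, has 7 probe sets. The brightest, 1435888_at, had 79.4, 63.5 and 87.7 in Arid1a d/d uteri, against 90.9, 75.4 and 91.3 in Arid1a f/f uteri (log2 fold change -0.17, 95% interval -0.49 to 0.16, adjusted p = 0.622, limma). The interval leaves room for a moderate fall or a slight rise. The next, 1424932_at, had 24.1, 14.7 and 24.4 in Arid1a d/d uteri, against 27.1, 24.6 and 24.7 in Arid1a f/f uteri, a log2 fold change of -0.31 (95% interval -0.73 to 0.12). Its groups did not overlap, but by a narrow margin, and replicate 2 was the low array. Without replicate 2 the 2 probe sets had log2 fold changes of -0.03 and -0.07. Another bright probe set, 1460420_a_at, had -0.04, and the 4 dim ones ran from -0.14 to 0.19.

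Erbb2, whose protein is the preferred partner of the other receptors, had 11.9, 17.3 and 10.1 in Arid1a d/d uteri, against 11.5, 10.1 and 10.7 in Arid1a f/f uteri. Only replicate 2 of the Arid1a d/d arrays stood above the Arid1a f/f arrays by more than their own range. The log2 fold change was 0.25 (95% interval -0.16 to 0.66, adjusted p = 0.544, limma), and 0.03 without that replicate. Erbb4, a second receptor for neuregulins, was dim on its single probe set, with 2.06, 1.91 and 1.76 in Arid1a d/d uteri and 2.19, 1.83 and 1.93 in Arid1a f/f uteri.

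None of the 5 ligand genes had a called change. Hbegf, which encodes heparin-binding EGF-like growth factor, had the largest standard error of the 10 genes. Its brightest probe set, 1418350_at, had 5.09, 11.1 and 5.16 in Arid1a d/d uteri, against 3.89, 8.24 and 3.34 in Arid1a f/f uteri. The array numbered 2 was the high one in each genotype, and the groups overlapped. The log2 fold change was 0.48 (standard error 0.38, 95% interval -0.38 to 1.34, adjusted p = 0.587, limma). It was 0.11 without the high Arid1a d/d array and 0.88 without the high Arid1a f/f array. With the replicate number as a block in the fit, it was again 0.48, with an adjusted p of 0.0559 (limma), still not called. On the second probe set, 1418349_at, the log2 fold change was 0.0020, and the array numbered 2 was again the highest in each genotype (6.79 and 6.19).

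Tgfa, which encodes transforming growth factor alpha, had 7.54, 6.77 and 4.94 in Arid1a d/d uteri, against 7.18, 6.12 and 7.58 in Arid1a f/f uteri. The arrays overlapped, and the log2 fold change was -0.13 (95% interval -0.51 to 0.24, adjusted p = 0.754, limma). Its other 2 probe sets had 0.03 and 0.09. Ereg, which encodes epiregulin, had 2.01, 1.82 and 1.79 in Arid1a d/d uteri, against 2.12, 2.21 and 2.56 in Arid1a f/f uteri. Each Arid1a d/d value was lower than each Arid1a f/f value, but the probe set was dim, and the log2 fold change of -0.29 (95% interval -0.54 to -0.04) had an unadjusted p of 0.0273 and an adjusted p of 0.196 by limma. Btc, which encodes betacellulin, had 2.64, 4.08 and 2.52 in Arid1a d/d uteri, against 2.56, 2.17 and 2.40 in Arid1a f/f uteri. Replicate 2 of the Arid1a d/d arrays was the one value of this probe set well above the others, and the log2 fold change was 0.34 with it and 0.12 without it. The second Btc probe set, 1421161_at, was also dim, with 1.71, 2.16 and 1.97 in Arid1a d/d uteri and 1.42, 1.74 and 1.74 in Arid1a f/f uteri. Its log2 fold change was 0.25, and 0.17 without Arid1a d/d replicate 2. Egf itself was dim, with 1.91, 2.24 and 1.97 in Arid1a d/d uteri and 2.08, 2.16 and 1.90 in Arid1a f/f uteri, and at this signal a difference was not detectable.

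**Figure D2:**
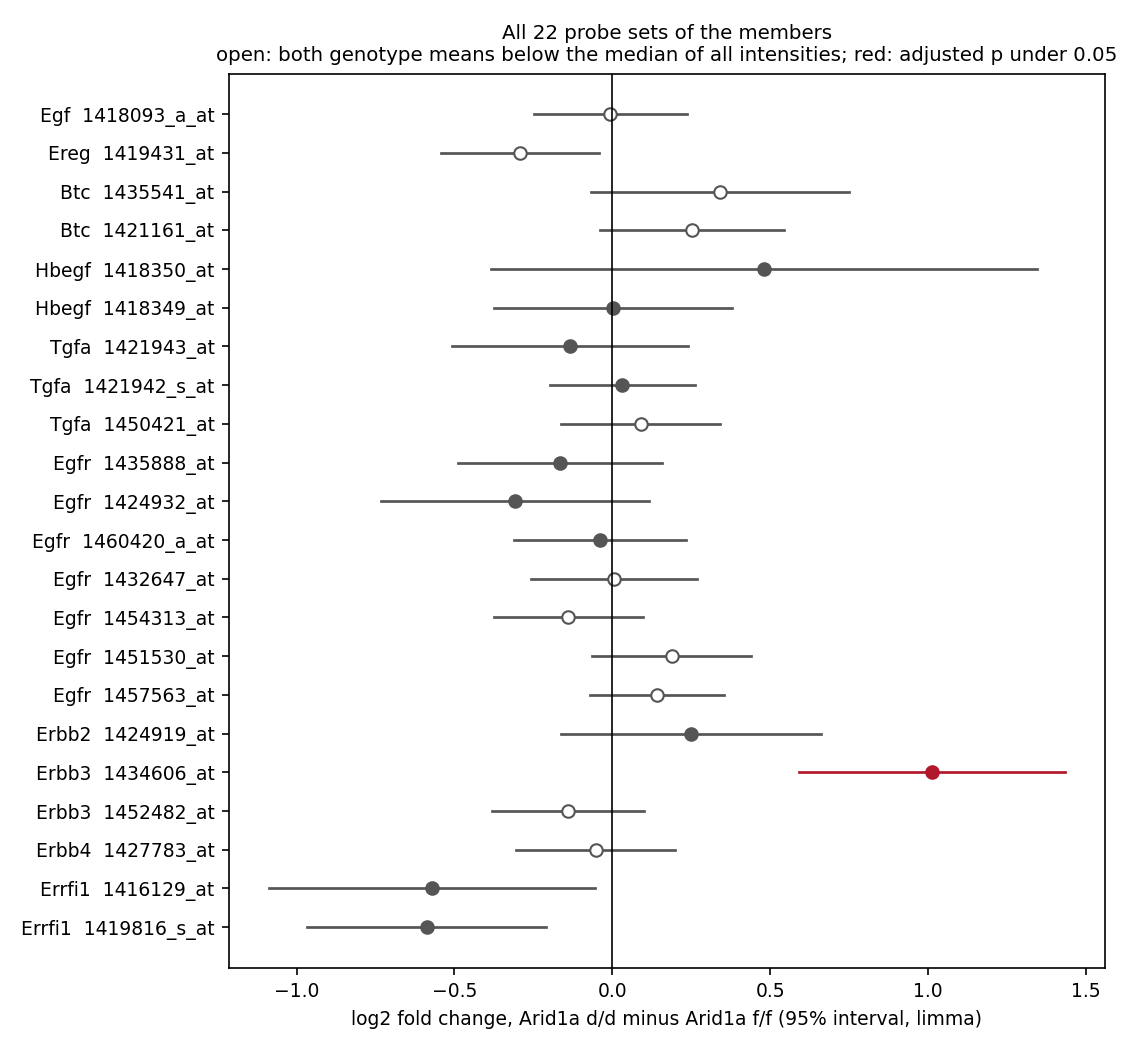
Log2 fold change, Arid1a d/d minus Arid1a f/f, of all 22 probe sets of the 10 genes, ordered by role from ligands at the top through receptors to Errfi1 at the bottom. Points are limma estimates from 3 arrays per genotype and lines their 95% intervals, with dim probe sets open and the 1 called probe set in red. The interval of Erbb3 1434606_at (0.59 to 1.43) lies furthest from 0, and both Errfi1 intervals lie below 0 although neither was called after adjustment.

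Errfi1 encodes MIG-6, a cytoplasmic protein that is made in response to EGFR signaling and binds the kinase domain of the receptors to inhibit them. In the mouse uterus it is known as a progesterone-induced gene that restrains estrogen action. Its brightest probe set, 1416129_at, had 242.5, 117 and 159 in Arid1a d/d uteri, against 233, 237 and 269 in Arid1a f/f uteri. Replicates 2 and 3 were low, while replicate 1 lay within the range of the Arid1a f/f arrays, so the means were 173 ± 63.7 in Arid1a d/d uteri and 246 ± 19.5 in Arid1a f/f uteri (SD, n = 3 each). The log2 fold change was -0.57 (standard error 0.23, 95% interval -1.09 to -0.05), with an unadjusted p of 0.0341 and an adjusted p of 0.220 by limma. The second probe set, 1419816_s_at, had 19.2, 12.1 and 13.4 in Arid1a d/d uteri, against 21.1, 21.5 and 23.2 in Arid1a f/f uteri. Here the groups did not overlap, and the log2 fold change was -0.59 (standard error 0.17, 95% interval -0.97 to -0.21, adjusted p = 0.0882, limma). Both probe sets gave the same order of the 3 Arid1a d/d arrays. Without replicate 1 both passed, at -0.85 (adjusted p = 0.0312) and -0.79 (adjusted p = 0.0171), and without replicate 2 they had -0.32 (adjusted p = 0.461) and -0.45 (adjusted p = 0.233, limma).

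Of 13 genes known to be induced by EGF and ERK signaling, 3 fell, 0 rose and 10 had no called change. Of all genes, 4.06% were called lower and 3.37% higher. The median log2 fold change of the list was 0.02. The 3 that fell were the immediate early genes Egr1, Fos and Ier3. Egr1, a zinc finger transcription factor, had 49.5, 52.5 and 54.6 in Arid1a d/d uteri, against 122, 185 and 239 in Arid1a f/f uteri (log2 fold change -1.75, standard error 0.21, adjusted p = 0.00518, limma), and the call was kept whichever of the 6 arrays was left out. Fos, a subunit of the AP-1 transcription factor, had 19.4, 26.9 and 14.7 in Arid1a d/d uteri, against 43.8, 61.5 and 133 in Arid1a f/f uteri (log2 fold change -1.85, standard error 0.37, adjusted p = 0.0296, limma). Ier3 had 42.4, 46.9 and 28.5 in Arid1a d/d uteri, against 68.8, 110 and 126 in Arid1a f/f uteri (log2 fold change -1.36, standard error 0.25, adjusted p = 0.0210, limma). For each of the 3 genes the Arid1a d/d arrays lay below all Arid1a f/f arrays. When each array was left out in turn, Fos kept its call 2 times of 6 and Ier3 3 times of 6, and Fos had an adjusted p of 0.0836 with the trend and robust options of eBayes. With 4 added to each intensity both calls were lost, at an adjusted p of 0.0827 for Fos and 0.0553 for Ier3 (limma).

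The genes of the same list that encode feedback inhibitors of ERK signaling had no called change. Dusp6, an ERK phosphatase, had 42.4, 99.8 and 47.3 in Arid1a d/d uteri, against 53.6, 50.3 and 60.7 in Arid1a f/f uteri, with replicate 2 apart from the other 5 arrays (log2 fold change 0.10). Spry2 and Spry4, which encode Sprouty inhibitors, had log2 fold changes of 0.14 and 0.09, and Phlda1 had 0.13. The transcription factor genes Etv5 and Myc had -0.43 and -0.04, and neither was called.

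**Figure D3:**
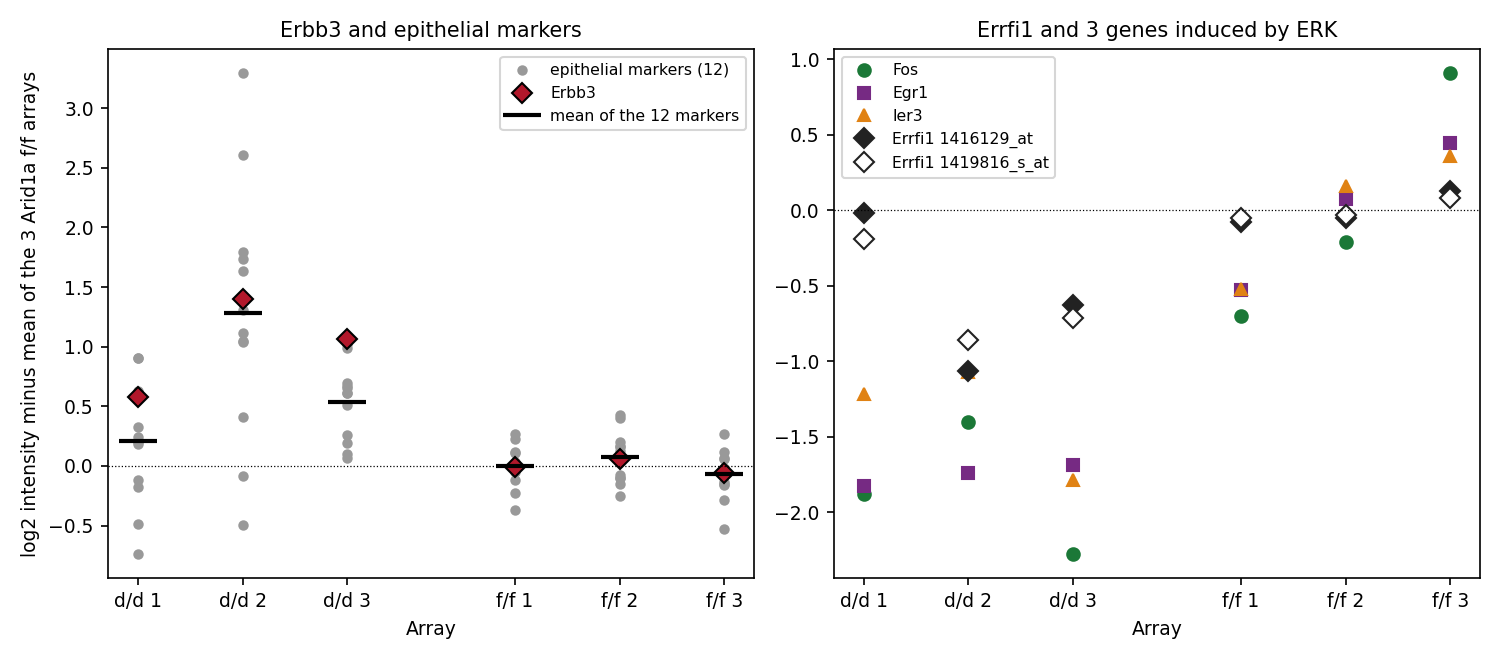
Log2 intensity on each array minus the mean of the 3 Arid1a f/f arrays, with Arid1a d/d arrays at the left and Arid1a f/f arrays at the right of each panel. The left panel shows Erbb3 (red diamonds), the 12 epithelial markers (grey points) and their mean (bars), and the right panel shows both Errfi1 probe sets with Fos, Egr1 and Ier3. Erbb3 lies above the marker mean on all 3 Arid1a d/d arrays, and on Arid1a d/d replicate 1 Errfi1 stays near the Arid1a f/f level while Fos, Egr1 and Ier3 are low.

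Promoter windows from 250 bases before to 50 bases after a gene's start were read from a table of RefSeq sequences (build GRCm38.p6), in which 7 of the 10 genes were matched to 9 windows. Errfi1 has 2 of them, and the one further downstream is printed with those of Fos and Ier3. The start of the inhibitor gene, which had no called change, can thus be read beside starts of genes that fell. Egr1, which also fell, was not searched. Capitals mark TGACG, the core of the CREB and ATF binding motif TGACGTCA, and TATAAA, the TATA box, both searched on either strand. All 3 windows are on the plus strand, at chr4:150854820-150855119 for Errfi1, chr12:85473640-85473939 for Fos and chr17:35821463-35821762 for Ier3.
Errfi1: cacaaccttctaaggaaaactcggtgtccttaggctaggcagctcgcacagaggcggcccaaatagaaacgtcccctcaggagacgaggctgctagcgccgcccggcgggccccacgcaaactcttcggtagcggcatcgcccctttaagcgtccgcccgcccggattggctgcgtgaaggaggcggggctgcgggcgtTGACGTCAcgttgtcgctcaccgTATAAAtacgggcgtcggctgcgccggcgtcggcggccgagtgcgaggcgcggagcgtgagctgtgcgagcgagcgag
Fos: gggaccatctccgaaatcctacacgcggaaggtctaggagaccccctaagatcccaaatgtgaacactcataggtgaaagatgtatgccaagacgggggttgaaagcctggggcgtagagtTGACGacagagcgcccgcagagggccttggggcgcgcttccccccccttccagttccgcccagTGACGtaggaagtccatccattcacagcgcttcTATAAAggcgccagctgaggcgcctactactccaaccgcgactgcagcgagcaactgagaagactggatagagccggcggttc
Ier3: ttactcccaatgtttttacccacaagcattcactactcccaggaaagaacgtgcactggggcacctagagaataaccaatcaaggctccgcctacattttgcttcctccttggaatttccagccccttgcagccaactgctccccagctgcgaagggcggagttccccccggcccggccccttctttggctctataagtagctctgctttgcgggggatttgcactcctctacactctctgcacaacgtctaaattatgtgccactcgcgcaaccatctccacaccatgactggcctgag
The printed Errfi1 window holds the full motif TGACGTCA, which contains TGACG on both strands, from position -51, and TATAAA from position -28, counted from the start. Among 32851 windows of the same length, 1.79% hold TGACGTCA on either strand, 20.8% hold TGACG and 13.6% hold TATAAA. Fos holds TGACG at -129 and -66 and TATAAA at -33. TGACG is also in the windows of Btc (at -113) and Erbb2 (at -171). Like Errfi1, both of these genes had no called change. GGGCGG, the GC box, was found at 3 positions in the Errfi1 window, at 1 in Fos and at 1 in Ier3, and in 35.7% of all windows. Neither TGACG nor TATAAA is in the Ier3 window, and the upstream Errfi1 window holds none of the motifs searched. These matches describe the letters of the windows and were not set against any binding data.

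Of 83 listed genes around the receptors, 73 were measured, and 0 were called higher and 5 lower (3.37% and 4.06% of all genes), with a median log2 fold change of -0.04, against -0.02 over all genes. At an unadjusted p under 0.05, 16 of the 73 passed, where 24.9% of all genes did. The 5 were Egr1, Fos and Ier3 and the metalloprotease genes Adam15 and Adam19. Of 8 measured genes of ligand shedding, these 2 fell. Adam15 had 42.4, 36.0 and 43.4 in Arid1a d/d uteri, against 62.6, 54.2 and 57.5 in Arid1a f/f uteri (log2 fold change -0.52, adjusted p = 0.0368, limma), and Adam19, whose protein cleaves neuregulins, had 39.3, 37.9 and 33.3 in Arid1a d/d uteri, against 49.5, 58.1 and 48.0 in Arid1a f/f uteri (log2 fold change -0.49, adjusted p = 0.0497, limma). Both groups of arrays were apart for each gene, but neither call was kept when any 1 array was left out, and the Adam15 probe set is of a type that can detect several transcripts. Adam17 and Adam10, the main sheddases of the EGF family, had log2 fold changes of -0.09 and 0.06, with no call.

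**Figure D4:**
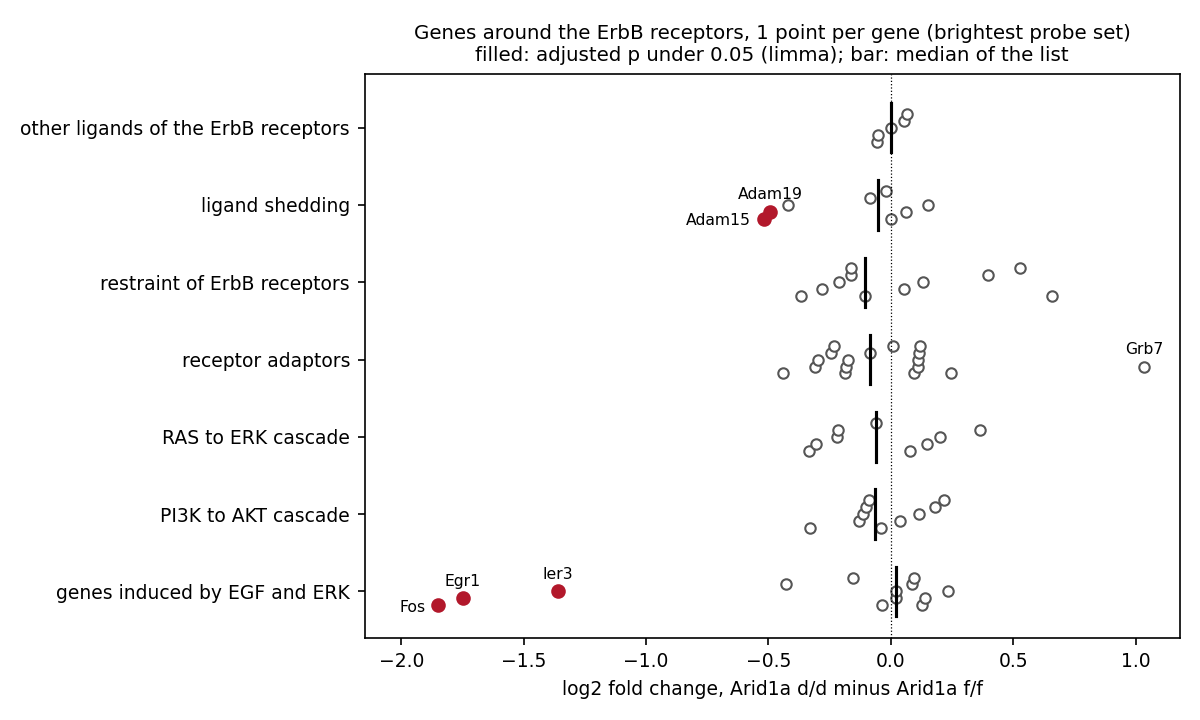
Log2 fold change, Arid1a d/d minus Arid1a f/f, of 73 genes around the ErbB receptors in 7 lists, with 1 point per gene on its brightest probe set. Filled red points were called by limma at an adjusted p under 0.05, bars are the medians of the lists, and Grb7 is named though not called. Fos, Egr1 and Ier3 lie between -1.85 and -1.36, and the medians of all 7 lists lie between -0.10 and 0.02.

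The other 5 lists had no called gene. Grb7, an adaptor that binds ERBB2 and ERBB3, had the highest log2 fold change of the 73 genes. It had 18.4, 42.7 and 29.0 in Arid1a d/d uteri, against 12.8, 15.2 and 13.6 in Arid1a f/f uteri, with no overlap (log2 fold change 1.04, standard error 0.26, adjusted p = 0.0589, limma). Its 3 Arid1a d/d arrays had the same order as those of Erbb3. The mean log2 intensity of the 12 epithelial markers had that order too (6.07, 7.15 and 6.40 in Arid1a d/d replicates 1, 2 and 3). Among the other adaptors, Plcg1, which encodes phospholipase C gamma 1, had -0.44 (adjusted p = 0.0672, limma), and the median of 17 adaptor genes was -0.09. Of 11 genes that restrain ErbB receptors, 0 were called, with a median of -0.10. Lrig1, whose protein promotes ErbB degradation, had 33.0, 49.8 and 25.4 in Arid1a d/d uteri, against 19.3, 26.1 and 20.9 in Arid1a f/f uteri (log2 fold change 0.66, adjusted p = 0.156, limma), and the ubiquitin ligase gene Cblc had 0.53. Of 9 genes of the RAS-ERK cascade and 10 of the PI3K-AKT cascade, 0 were called, with Rps6ka3 at 0.37, Braf at -0.33, Pik3ca at -0.33 and Pik3r3 at 0.22. The 5 measured ligands outside the 10 genes, 4 of them dim, had 0 calls, with Nrg3 at 0.07 and Nrg2 at -0.06.

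Markers of other cell types also differed between the genotypes, where 4.06% of all genes were called lower and 3.37% higher. Of 9 endothelial markers, 8 fell (Pecam1, Cdh5, Vwf, Kdr, Tek, Tie1, Emcn and Eng), and the summed intensity of the 9 was 182 to 226 in Arid1a d/d uteri and 395 to 410.5 in Arid1a f/f uteri. With each array left out in turn, Cdh5, Vwf and Emcn kept their calls 6 times of 6. Pecam1 kept its call 5 times, Tie1 3, Tek 2, Eng 1 and Kdr 0 times. Of 8 stromal markers 1 fell (Dcn), with sums of 7868 to 9338 in Arid1a d/d uteri and 10078 to 11277 in Arid1a f/f uteri. Of 8 smooth muscle markers 1 fell (Des), of 7 leukocyte markers 1 (Ptprc), of 5 uterus markers 1 (Esr1) and of 3 markers of oviduct and ovary 1 (Ovgp1), and of 4 blastocyst markers, 3 of them dim, 0 changed. Of the leukocyte markers Itgam was dim, and of those of oviduct and ovary Cyp11a1. The part of these cell type markers in the Errfi1, Egr1, Fos and Ier3 results was not tested. Arid1a d/d replicate 2 stood apart with the highest epithelial sum and the lowest endothelial sum, and it also had the highest Erbb3, Erbb2, Btc, Hbegf and Grb7 and the lowest Errfi1 and Egfr of the 6 arrays.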

How the data were processed

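Whole uteri of 6 samples at 3.5 dpc were measured on Affymetrix mouse arrays from 500 ng of total RNA. The authors applied RMA and global scaling and deposited linear intensity values for 45037 probe sets. The submitters' processing notes list RMA, and its version is not stated in the sources used here. A trimmed mean of 100 per array was the stated target of the scaling. The deposited values do not show it, and any later rescaling is not described in the methods.

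Here log2 was taken of each deposited intensity, since the values were linear, and limma 3.58.1 (R 4.3.3; lmFit, then eBayes; two-sided) was run on all probe sets with no filter on dim ones. Intervals are at 95%. Gene names came from the platform annotation, brought up to date with the GRCm38.p6 gene table: 34945 name 1 gene, 932 several and 9160 are unnamed here. Of 83 pathway genes 73 were measured, and the rest were not analysed here. The limma step was checked on simulated data of known changes. With 3 arrays per genotype, the number of arrays limits the precision.

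The 10 genes and the lists were chosen with earlier results of these data known. The genes named were the 10 members, Arid1a, marker genes that passed the test and, per pathway list, up to 4 genes with the largest change past the test, or the 2 with the largest where none passed. Adam10, Adam17, Dusp6, Spry2, Spry4, Phlda1, Etv5 and Myc fall outside that rule and were picked with their values in view. Also outside it are the 10 epithelial markers with no call, all of which are named, and the uncalled markers Eomes, Itgam and Cyp11a1. So are Rhbdf1 and Araf, which were called in other settings.

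Other settings tried were median centring, quantile normalization, a replicate block, removal of the dimmest 40% of probe sets, array weights, the trend and robust options of eBayes, the methods' t-test with Benjamini-Hochberg adjustment, removal of probe sets marked _s_at or _x_at (which may detect more than 1 transcript), the mean of a gene's probe sets, a pseudocount of 4 and leaving out each array.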

Additional observations from a re-analysis of the deposited data

How the results depend on the processing

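Of the 10 genes, 1 was called higher, which became 0 in the methods' t-test and with log2(value + 4), and 0 to 1 when 1 array was left out. The same counts held for the 22 probe sets. The count of genes called lower was 0, in the methods' t-test too, and ran from 0 to 1, and that of probe sets from 0 to 2, when 1 array was left out, the highest without Arid1a d/d replicate 1. Of the 73 pathway genes, 0 were called higher, and 1, Grb7, was called with the replicate block, median centring, trend and robust options or array weights, and 0 to 1 when 1 array was left out (1 without Arid1a d/d replicate 1). The 5 called lower became 0 in the methods' t-test, 3 without probe sets marked _s_at or _x_at, and 1 to 3 when 1 array was left out. With quantile normalization the count was again 5, with Plcg1 (-0.47, adjusted p = 0.0440, limma) in place of Adam19. With log2(value + 4) the count was also 5, with Rhbdf1 (-0.39) and Araf (-0.26) in place of Fos and Ier3. The cause was not tested. Whether the replicate numbers pair the samples was not settled. Deviations of same-numbered arrays correlated at -0.0036, 0.05 and 0.14, and those of other pairs at -0.12 to 0.06. With the replicate block Erbb3 kept its call (adjusted p = 0.0175, limma) and Adam19 lost it (adjusted p = 0.0547). As the mean of their probe sets, Erbb3 had 0.44 and kept its call, and Adam15 (-0.20) and Adam19 (-0.17) lost theirs. The direction of the fold change turned for Egf in 6 of 15 alternatives, for Erbb4 in 2 of 15 and for Tgfa in 1 of 16, and for none of the other 7 genes. Dim signal limits Egf, Ereg, Btc and Erbb4, whose intensities cannot be told from background.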
